A study of Mus musculus with 48 samples.

Results

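The 9 genes described here encode receptors for circulating hormones and the enzymes that activate testosterone inside its target cells. They are Esr1, Nr3c1, Vdr, Thra, Thrb, Ghr, Prlr, Srd5a1 and Srd5a2, and they were taken by name from the 46983 genes of the deposited expression tables. All 9 were found in both tables and all 9 passed the filter on low values. RNA had been sequenced from microdissected whole skin of C57BL/6 mice, from 3 skin domains (chin, ventral and dorsal) at 6 stages of the hair cycle. The stages were both phases of telogen (refractory and competent), catagen, and the early, mid and late parts of anagen. In the study, competent telogen is the first telogen and refractory telogen the early second one, after that anagen and catagen. Each of the 18 groups held 2 or 3 libraries (43 in all). A second table held telogen ear skin (2 libraries), the cartilage/muscle complex of the ear (3 libraries) and the 2 dorsal competent telogen libraries again, with the same values. The study dissected these domains to ask how hair growth differs between body regions. The labels give no genotype or treatment beyond the strain, no age and no sex, and do not say whether libraries of a group came from separate mice, so that p-values measure the spread between libraries, which may be technical.

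Esr1 encodes the alpha estrogen receptor, Nr3c1 the glucocorticoid receptor, Vdr the vitamin D receptor, and Thra and Thrb the thyroid hormone receptors. All of these are nuclear receptors, which bind DNA and switch target genes on or off when their hormone is present. Vdr and the thyroid hormone receptors bind DNA together with a retinoid X receptor, and the corepressor Hairless, encoded by Hr, binds Vdr. Loss of either Vdr or Hr is known to block the return of hair follicles to growth after the first cycle. Ghr and Prlr encode the growth hormone and prolactin receptors, which sit in the cell membrane and signal through Jak2 and Stat5. Srd5a1 and Srd5a2 encode 5-alpha-reductases, which turn testosterone into the stronger dihydrotestosterone, the androgen linked to hair growth on the face and to hair loss on the scalp. In telogen the follicle rests, in anagen it grows a hair shaft and in catagen it regresses. Telogen is called refractory while follicles cannot be activated and competent once they can.

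The 5-alpha-reductase genes encode enzymes of the same reaction but differed in level and in pattern, and the DNA upstream of each is shown so that the genes can be compared. Both sequences are from RefSeq (GRCm38.p6), read on the gene's own strand, and run from 250 to 61 bases before the transcript start. Capitals mark GGGCGG, the GC box, on either strand. The Srd5a1 stretch is chr13:69611524-69611713 and the Srd5a2 stretch is chr17:74047921-74048110, both on the minus strand.
Srd5a1: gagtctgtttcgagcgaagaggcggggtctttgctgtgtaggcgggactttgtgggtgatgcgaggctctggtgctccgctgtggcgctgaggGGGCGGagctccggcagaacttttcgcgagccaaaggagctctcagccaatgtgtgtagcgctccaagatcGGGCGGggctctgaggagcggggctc
Srd5a2: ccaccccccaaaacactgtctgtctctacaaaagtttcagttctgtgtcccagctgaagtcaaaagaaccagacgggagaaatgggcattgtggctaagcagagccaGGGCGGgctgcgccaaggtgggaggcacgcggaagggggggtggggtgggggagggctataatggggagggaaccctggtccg
Over the whole 250 bases, Srd5a1 had a GC content of 64.8%, 20 CG dinucleotides and 3 GC boxes, and Srd5a2 63.2%, 12 CG dinucleotides and 2 GC boxes. The median over 32851 promoters was 52.4% and 6 CG dinucleotides, and 32.7% of promoters held a GC box. Neither upstream region held TATAAA or AGGTCA, which were present in 12.4% and 14.0% of promoters. A match of letters is a description of the sequence and not a measured binding site. Promoters of 7 of the 9 genes were used, and those of the chromosome that holds Nr3c1 were left out throughout.

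The tables hold no counts, and depth was estimated from the steps between low FPKM values, at 6728111 to 30153300 fragments per library (median 13017497). Hair matrix and shaft genes marked some groups that stood apart from their labels. Over 9 such genes, the mean log2(FPKM + 1) was 6.8 to 6.87 in chin and 6.8 to 7.03 in ventral competent telogen, but 8.7 in both libraries labelled dorsal competent telogen, inside the range of 8.48 to 9.28 over mid- and late anagen. It was lowest of the 18 groups in dorsal early anagen, at 5.54 to 5.7, and it was 8.33 to 8.4 in ventral and 8.24 to 8.3 in dorsal refractory telogen against 6.63 to 7.38 in chin. The summed FPKM of these genes was 7120 to 7200 in dorsal competent telogen and 956 to 1050 in dorsal early anagen, and none of them was at 0 in any skin group. Across all genes, chin late anagen and dorsal competent telogen correlated at r = 0.9809 to 0.9833, against a median of 0.9775 between replicates of a group and 0.9427 between libraries of other groups. Counts of the 9 genes that changed without either dorsal group are given with and without it. The gene lists described below were counted only with both groups in place. One ventral catagen library carried an ear location in a single label and was placed by its name. Counts are read against the share of all genes tested that passed the same test, given in percent.

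**Figure D1:**
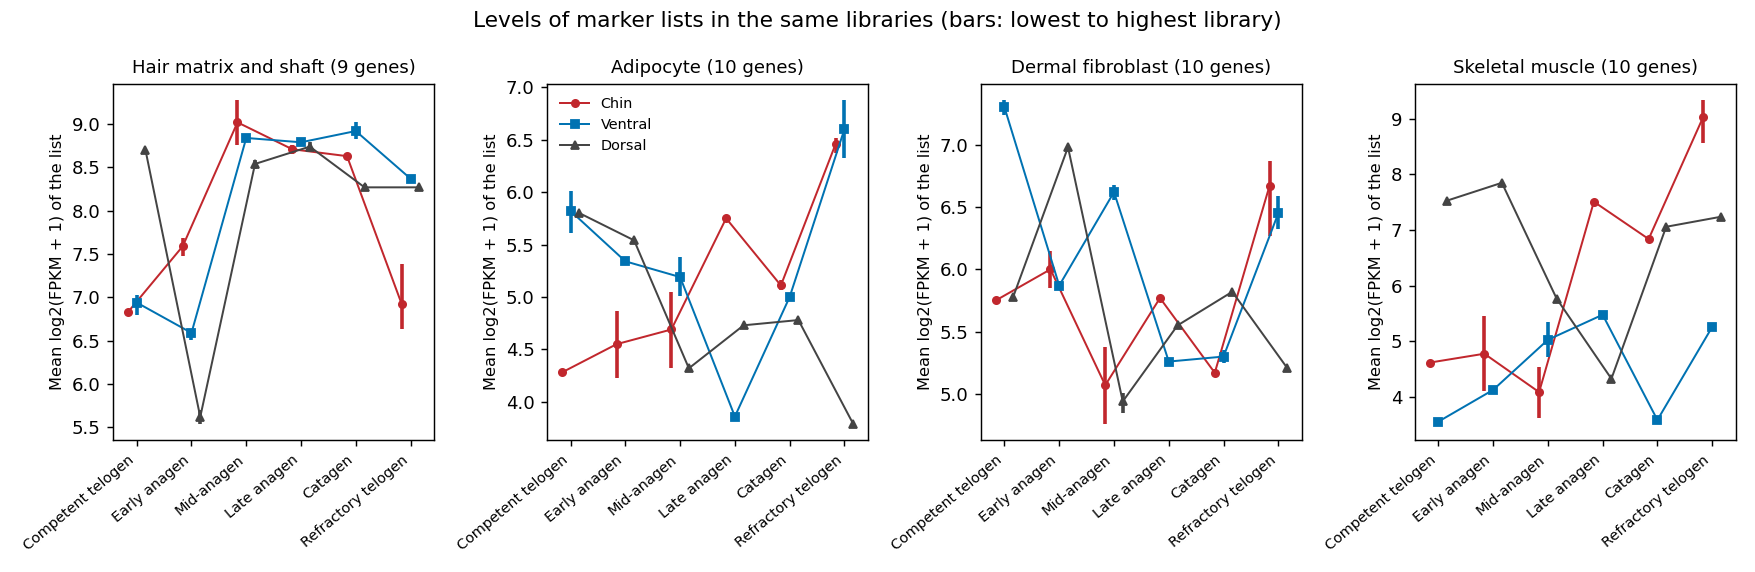
Mean log2(FPKM + 1) of 4 lists of cell type markers (y axis) at the 6 stages (x axis) in chin, ventral and dorsal skin, with lines through group means and bars from the lowest to the highest library. The hair matrix and shaft list is at 8.7 in dorsal competent telogen and at 5.54 to 5.7 in dorsal early anagen, while chin and ventral competent telogen lie between 6.8 and 7.03.

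FPKM counts fragments per length of transcript and per depth, so that levels can be set side by side between genes. Vdr was the highest of the 9 genes in the median library (35.4 FPKM), followed by Ghr (20.6), Thra (19.9), Nr3c1 (19.0), Srd5a1 (18.4), Prlr (4.4), Thrb (3.56), Esr1 (2.0) and Srd5a2 (1.06). Vdr and Srd5a1 varied least between the group means. The highest group mean was 1.46 times the lowest for Vdr and 1.49 times for Srd5a1, but 2.15 times for Thra, 2.68 for Thrb, 3.53 for Nr3c1, 3.65 for Prlr, 4.53 for Ghr and 6.79 for Esr1. Chin refractory telogen held the highest mean of 4 genes (Esr1, Nr3c1, Ghr and Thra). When the 18 group means of a gene were put in order, most neighbours overlapped, from 11 of 17 neighbouring pairs for Ghr to 16 of 17 for Prlr and Srd5a1. In whole skin, fewer cells of a type and less RNA per cell cannot be told apart.

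Esr1 (chr10:4611593-5005614, plus strand; positions are GRCm38 with GENCODE vM21) was highest in chin refractory telogen and in ventral competent telogen. The libraries held 6.26, 5.73 and 6.54 FPKM in chin refractory telogen (6.18 ± 0.411, SD, n = 3) and 5.74, 5.83 and 6.18 in ventral competent telogen (5.92 ± 0.232, n = 3). Chin competent telogen was lowest, at 0.95 and 0.87. The high groups overlapped each other, chin competent telogen overlapped dorsal late anagen (0.88, 1.07 and 1.05), and the telogen stages of chin skin stood at opposite ends of the order. From chin catagen (1.32, 1.11 and 1.01 FPKM) to refractory telogen Esr1 rose by 1.74 ± 0.14 on the log2(FPKM + 1) scale (SE, limma, adjusted p = 2.85e-11), and chin competent telogen was -1.91 ± 0.16 from chin refractory telogen (adjusted p = 5.32e-11). In ventral skin Esr1 fell by 1.12 from mid-anagen (3.35 and 3.71 FPKM) to late anagen (1.01, 1.07 and 1.16; adjusted p = 4.42e-06). The ventral refractory telogen libraries disagreed, with 5.2 and 2.57 FPKM. The difference between the ventral telogen stages (log2 0.56, adjusted p = 0.00446, competent higher) did not pass without the second of them (0.16, adjusted p = 0.488). It was 0.21 (adjusted p = 0.255) after scaling each library by its median ratio to a common reference. Dorsal skin peaked at early anagen, at 3.45 and 3.53 FPKM, and fell to 1.28, 1.5 and 1.32 at mid-anagen.

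Nr3c1 stood apart in chin refractory telogen. Its libraries there held 54.15, 38.42 and 51.37 FPKM (48.0 ± 8.4, n = 3), above every other skin library. The next groups were ventral early anagen (31.99, 35.10 and 36.22), ventral competent telogen (30.33, 31.24 and 30.71) and dorsal early anagen (29.47 and 30.43). The lowest mean was dorsal mid-anagen, with 14.13, 13.01 and 13.63 FPKM. Nr3c1 rose by 1.55 ± 0.10 from catagen to refractory telogen in chin skin (adjusted p = 3.75e-13) and by 0.67 in ventral skin (adjusted p = 7.55e-05), but fell by 0.56 in dorsal skin (adjusted p = 0.000351), where catagen was at 25.96 and 25.93. It rose by 1.06 from the libraries labelled dorsal competent telogen (14.43 and 13.28) to dorsal early anagen (adjusted p = 5.67e-08) and fell by 1.09 to mid-anagen (adjusted p = 6.57e-09). Dorsal early anagen thus lay above its neighbours on both sides.

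Vdr (chr15:97854425-97910630, minus strand) changed little over the cycle. Its 43 skin libraries ranged from 28.28 to 46.55 FPKM. In chin skin the highest stage mean was 1.14 times the lowest, and the stages did not differ (F-test, adjusted p = 0.369). The clearest step was in ventral skin, where Vdr fell by 0.51 from competent telogen (44.57, 42.69 and 41.91 FPKM) to early anagen (30.01, 30.26 and 29.32; adjusted p = 3.2e-06) without overlap. It was 28.28 and 31.13 at ventral mid-anagen. In dorsal skin early anagen was highest, at 46.55 and 40.35 FPKM, and without those 2 libraries the dorsal stages did not differ in Vdr (adjusted p = 0.85). With the first of them left out, the adjusted p was 0.412.

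Thra (chr11:98740638-98769006, plus strand) was highest in chin refractory telogen, at 32.21, 27.01 and 31.20 FPKM (30.1 ± 2.76, n = 3), apart from every other group. It rose by 0.95 ± 0.08 from chin catagen (14.58, 14.14 and 16.44) to that stage (adjusted p = 2.21e-10). Nr1d1, which is transcribed from the other strand across the end of Thra, was also highest there (23.88 to 37.4 FPKM, against 3.47 to 18.51 in the other groups). The library kit does not mark strand, so reads in the overlap cannot be told apart. Thrb (chr14:17660261-18038090, plus strand) showed another order, with dorsal refractory telogen on top at 6.47 and 6.18 FPKM and ventral catagen lowest at 2.48 and 2.24. It rose by 0.90 ± 0.15 from dorsal catagen (3.00 and 2.87) to dorsal refractory telogen (adjusted p = 1.93e-05). The dorsal group was apart from the rest but for ventral refractory telogen, whose libraries were at 6.47 and 3.22. The thyroid receptor genes correlated at r = 0.49 over the 18 group means, which share the same libraries.

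Ghr (chr15:3317760-3583492, minus strand) was high in 3 telogen groups. Chin refractory telogen held 44.05, 44.77 and 49.74 FPKM (46.2 ± 3.1), ventral refractory telogen 48.57 and 42.33 (45.5 ± 4.41) and ventral competent telogen 46.13, 39.76 and 45.14 (43.7 ± 3.43), and these groups overlapped. Chin competent telogen was far lower, at 16.33 and 16.48, and dorsal refractory telogen was among the lowest groups, at 11.53 and 10.73. Only ventral late anagen had a lower mean, with 9.98, 11.06 and 9.52 FPKM. Ghr fell by 1.56 ± 0.12 from ventral mid-anagen (36.47 and 28.07) to late anagen (adjusted p = 3.17e-10). It rose by 1.36 in chin (adjusted p = 3.49e-11) and 1.49 in ventral skin (adjusted p = 1.34e-09) from catagen to refractory telogen, and fell by 0.90 in dorsal skin (adjusted p = 2.42e-06).

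Prlr (chr15:10177238-10349180, plus strand) was highest at early anagen in dorsal skin (11.10 and 9.86 FPKM) and in ventral skin (8.72, 9.22 and 10.45). In chin skin it was highest at refractory telogen (10.47, 9.44 and 11.12). Ventral refractory telogen (10.14 and 8.55) and ventral competent telogen (6.96 to 10.1) each overlapped all 3 of these groups. The lowest group was chin late anagen, with 3.08 and 2.68. Prlr rose by 1.46 ± 0.17 from the libraries labelled dorsal competent telogen (3.92 and 2.52) to dorsal early anagen (adjusted p = 5.33e-08), and then fell by 1.09 to mid-anagen (4.37, 4.4 and 4.4; adjusted p = 1.65e-06). Dorsal skin stayed between 3.53 and 5.00 FPKM from mid-anagen to refractory telogen, and without the 2 early anagen libraries its stages did not differ in Prlr (adjusted p = 0.237).

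**Figure D2:**
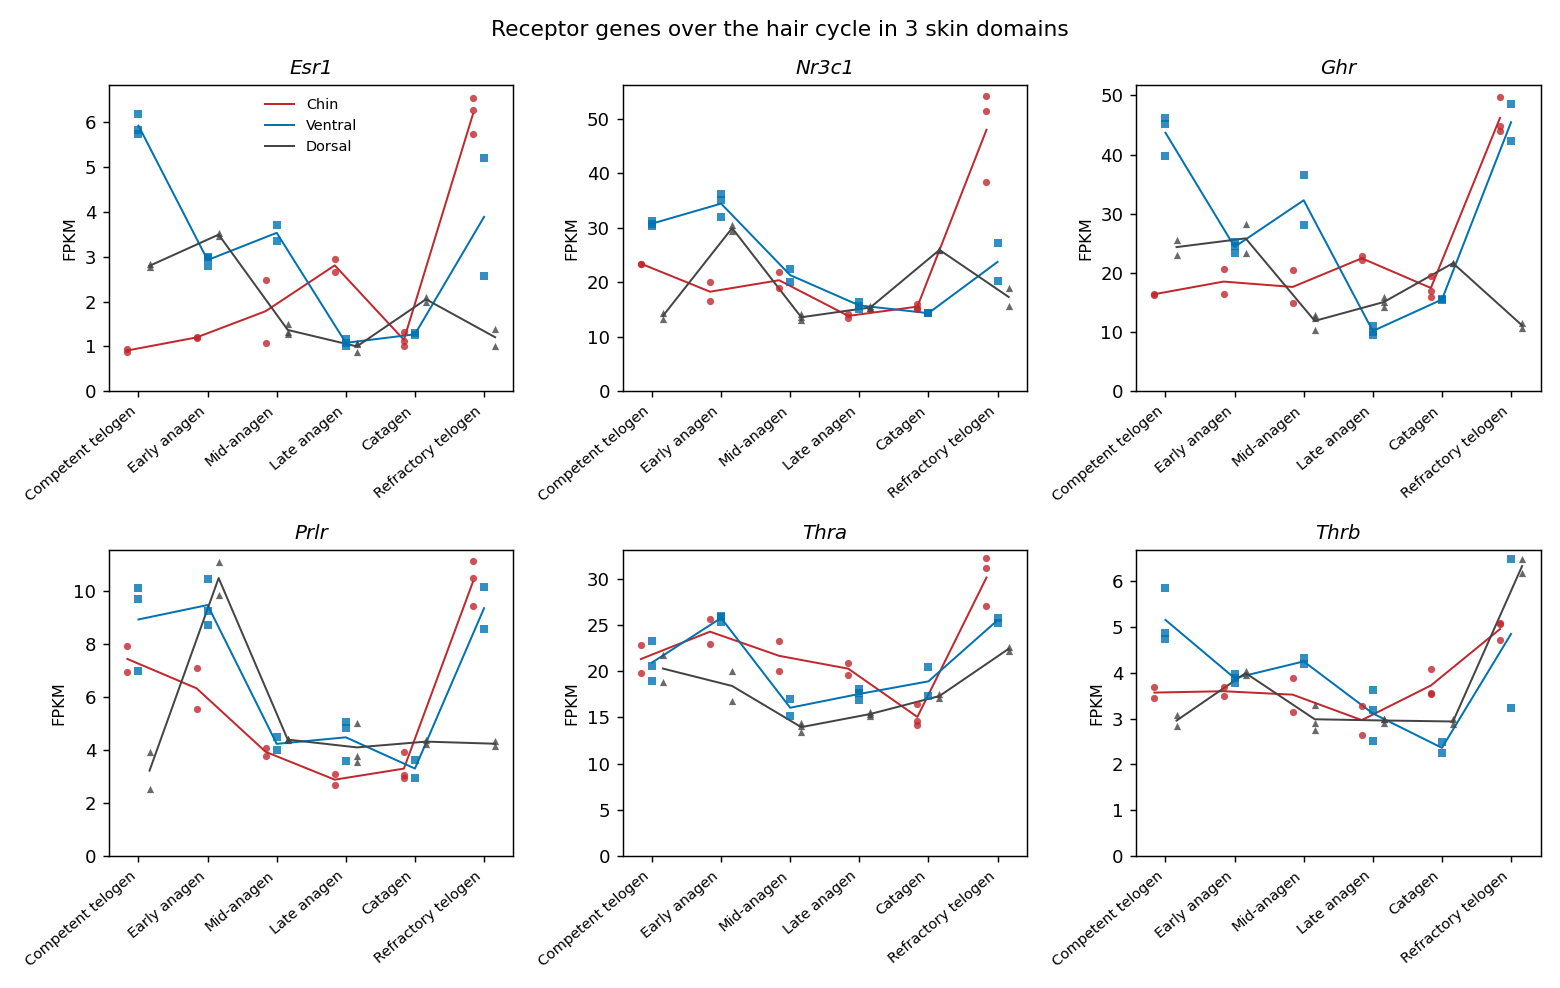
FPKM (y axis) of the receptor genes other than Vdr at the 6 stages (x axis) in chin, ventral and dorsal skin, with 1 point per library and lines through group means. Chin refractory telogen is highest for Esr1, Nr3c1, Ghr and Thra, and dorsal refractory telogen, at 6.18 and 6.47 FPKM, is highest for Thrb.

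The 5-alpha-reductase genes behaved unlike each other. Srd5a1 (chr13:69573449-69611442, minus strand) was present in every skin library between 14.22 and 26.15 FPKM, highest in ventral competent telogen (26.15, 25.35 and 20.17) and lowest in chin late anagen (15.49 and 16.46). Its stages differed in ventral skin only by the F-test, and not after median-ratio scaling (adjusted p = 0.136) or quantile normalization (adjusted p = 0.119). The adjusted p was 0.185 in chin and 0.535 in dorsal skin, where both passed after rescaling to transcripts per depth (0.0271 and 0.0233). Nsun2, on the opposite strand and overlapping Srd5a1, ranged from 19.28 to 75.45 FPKM over the skin libraries.

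Srd5a2 (chr17:74016955-74047916, minus strand) was low and changed from 0 to several FPKM within a domain. It was listed at 0 in 8 of 43 libraries, and 11 were at or below what 3 fragments would give (0.08 to 0.31 FPKM, by library). In chin skin both competent telogen and both early anagen libraries were at 0, mid-anagen at 0.17 and 0.66, late anagen at 2.76 and 3.65, catagen at 2.86, 3.42 and 2.48, and refractory telogen at 1.71, 1.48 and 0.76. Chin libraries therefore split between the first 3 stages and the later 3 without overlap. In ventral skin competent telogen was at 0.25, 0 and 0.09, early anagen already at 2.10, 1.16 and 1.95, and late anagen at 2.53, 1.75 and 3.50. Ventral mid-anagen was at 1.21 to 2.02 and catagen at 1.02 to 1.06. Ventral refractory telogen, at 1.91 to 2.2, lay inside the range of ventral anagen, so that only competent telogen was near 0. Dorsal skin followed another course. Its highest libraries were those labelled competent telogen, at 3.61 and 4.39, and those of refractory telogen, at 2.96 and 3.48, while the 10 libraries from early anagen to catagen held between 0 and 0.67. On the log2(FPKM + 1) scale, Srd5a2 rose by 1.59 ± 0.25 from mid- to late anagen in chin (adjusted p = 3.87e-05) and by 1.29 from competent telogen to early anagen in ventral skin (adjusted p = 9.31e-06). It fell by 2.14 ± 0.25 in dorsal skin over the same step (adjusted p = 9.42e-08). In GENCODE vM21 Srd5a2 overlaps CT025731.1 on its own strand, as Prlr does Gm21973, so that fragments may be divided between these genes. Whether the older annotation used by the authors holds both overlapping genes was not checked.

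**Figure D3:**
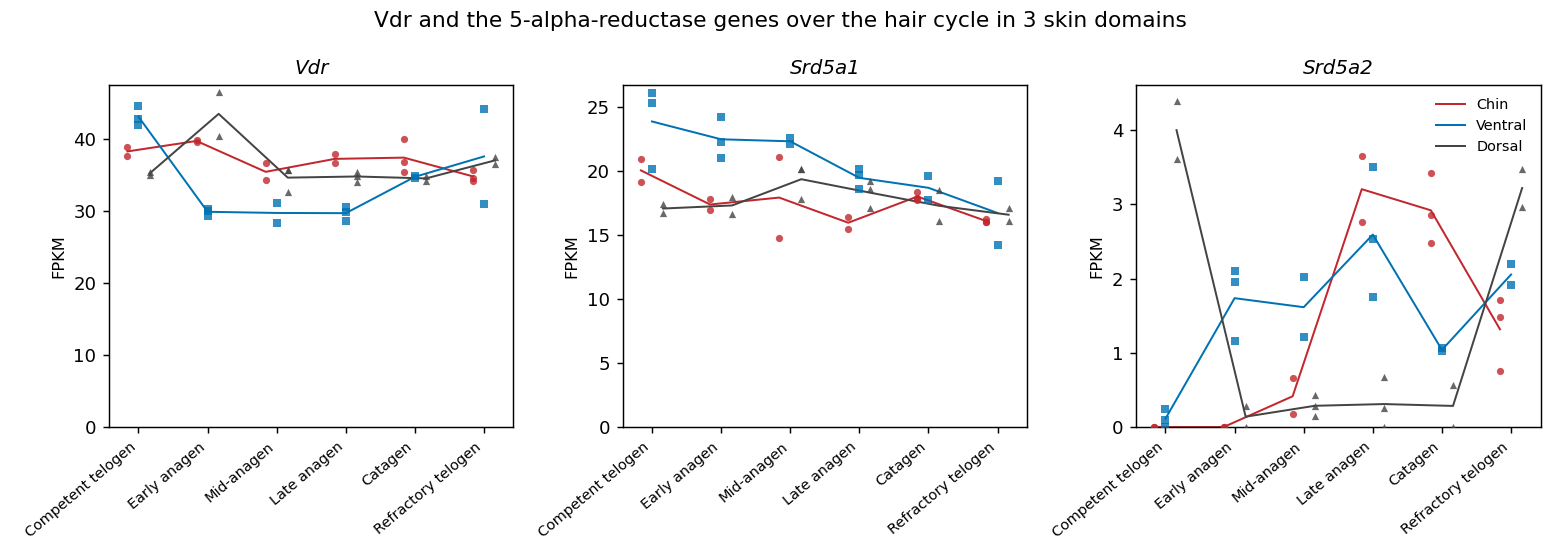
FPKM (y axis) of Vdr, Srd5a1 and Srd5a2 at the 6 stages (x axis) in chin, ventral and dorsal skin, with 1 point per library and lines through group means. Vdr stays between 28.28 and 46.55 and Srd5a1 between 14.22 and 26.15, while Srd5a2 is at 0 in chin competent telogen and early anagen and at 3.61 and 4.39 in dorsal competent telogen.

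Over the 6 stages, 7 of the 9 genes differed in chin skin (66.2% of all genes did), 9 in ventral skin (70.2%) and 8 in dorsal skin (68.5%). The exceptions were Vdr and Srd5a1 in chin and Srd5a1 in dorsal skin. Interaction of domain and stage, that is, a different course of the stages in different domains, passed for 8 of the 9 genes (73.3% of all genes), all but Srd5a1 (adjusted p = 0.177). With 9 genes, these counts are close to the shares of all genes. From chin competent telogen to early anagen 0 of 9 passed the limma test (2.14% of all genes), and from dorsal mid- to late anagen again 0 (2.68%). At an unadjusted p under 0.05 each of these steps had 1 gene, Nr3c1 in chin and Ghr in dorsal skin. The step from catagen to refractory telogen changed 7 in chin (48% of all genes), where 6 rose (30.5%) and Srd5a2 fell (17.5%). It changed 6 in ventral skin (33.6%), all of which rose (14.9% of all genes rose and 18.8% fell). In dorsal skin it changed 6 (43.7%), of which Thra, Thrb and Srd5a2 rose (19.1%) and Esr1, Nr3c1 and Ghr fell (24.5%). Of the other steps in chin skin, early to mid-anagen changed 1 gene, Prlr (18.1%; lost without 3 of the 4 libraries, adjusted p up to 0.204), mid- to late anagen 3 (19.7%) and late anagen to catagen 2 (13.1%). In ventral skin the first step of growth, from competent telogen, changed 6 (42.5%), the next 4 (42.4%), the step to late anagen 3 (24.2%) and that to catagen 2 (5.93%). In dorsal skin these steps changed 4 (43.4%) and 6 (39.2%), and the step from late anagen to catagen 3 (38.7%).

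Anagen was then set against telogen in each domain, as the mean of mid- and late anagen minus the mean of competent and refractory telogen. These telogen stages lie before and after that anagen, in different hair cycles. Hair matrix and shaft markers were higher in anagen for 9 of 9 genes in chin (median 2.00) and in ventral skin (1.16). In dorsal skin 3 of 9 were higher and 1 lower (median 0.17), so that the dorsal contrast separated these markers little. In chin skin 6 of the 9 genes differed (42.6% of all genes), with 5 lower in anagen (34.1%) and Srd5a2 higher (8.55%). In ventral skin 8 differed (31.8%), with 7 lower (22.9%) and Srd5a2 higher (8.82%). In dorsal skin 5 differed (31.4%), with all 5 lower in anagen (10.4%) and none higher (21%), and Srd5a2 was among them. The median of the 9 differences was -0.26 in chin, -0.44 in ventral and -0.29 in dorsal skin, beside -0.17, -0.09 and 0.04 over all genes. Median-ratio scaling moved the chin median of all genes to -0.01 and ended the chin calls of Ghr (-0.20, adjusted p = 0.0735), Thra (adjusted p = 0.997) and Thrb (adjusted p = 0.461).

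Prlr showed the largest anagen decrease of the receptor genes in chin skin (-1.16 ± 0.11, adjusted p = 2.37e-09), followed by Nr3c1 (-0.95 ± 0.08, adjusted p = 2.24e-10). In ventral skin it was Ghr (-1.24 ± 0.09, adjusted p = 4.42e-12), then Prlr (-0.92 ± 0.11, adjusted p = 1.17e-07) and Esr1 (-0.89 ± 0.11, adjusted p = 2.45e-07). Neither Prlr (0.16 ± 0.11, adjusted p = 0.286) nor Nr3c1 (-0.09, adjusted p = 0.433) passed in dorsal skin, although Nr3c1 did after median-ratio scaling (-0.21, adjusted p = 0.0183). Thra fell in all 3 domains, by 0.26 in chin, 0.44 in ventral and 0.51 in dorsal skin, as did Thrb, by 0.30, 0.34 and 0.44, but the chin calls of both were lost after median-ratio scaling and quantile normalization. The Thrb calls also failed without single libraries, in ventral skin without the first refractory telogen library (-0.14, adjusted p = 0.196) and in chin skin without the first competent telogen (0.0636), the second mid-anagen (0.0992) or the second late anagen library (0.102). Vdr fell only in ventral skin by this test, by 0.42 (adjusted p = 3.84e-06). Its chin difference was -0.01 (adjusted p = 0.971) and turned to 0.26 (adjusted p = 0.000102) after median-ratio scaling, under which Vdr was also lower in dorsal anagen (-0.18, adjusted p = 0.00323). Srd5a1 passed in no domain. Srd5a2 rose by 0.68 ± 0.17 in chin (adjusted p = 0.002) and 0.71 ± 0.16 in ventral skin (adjusted p = 0.0011), and fell by 1.84 ± 0.16 in dorsal skin (adjusted p = 6.93e-10).

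Without the libraries labelled dorsal competent telogen, 3 genes differed in dorsal skin (33.3% of all genes). Thra, Thrb and Srd5a2 were the ones that passed, with Srd5a2 at -1.72 (adjusted p = 2.72e-07). Esr1 went from -0.41 (adjusted p = 0.00454) to -0.02 (adjusted p = 0.975), and Ghr from -0.29 (adjusted p = 0.0113) to 0.25 (adjusted p = 0.0921). The Ghr call also failed without the first dorsal competent telogen (adjusted p = 0.0645) or the first dorsal refractory telogen library (0.0535).

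**Figure D4:**
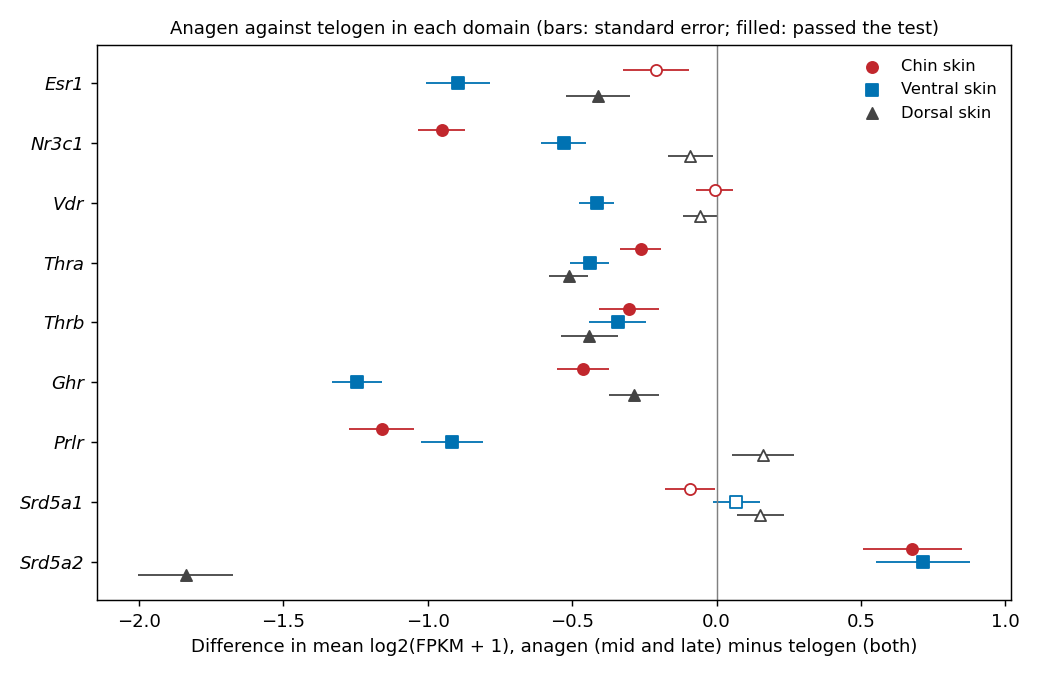
Difference in mean log2(FPKM + 1) between anagen (mid and late) and telogen (both) on the x axis for each gene (y axis) in chin, ventral and dorsal skin, with bars for the standard error and filled points where the adjusted p passed 0.05. Srd5a2 lies at 0.68 in chin, 0.71 in ventral and -1.84 in dorsal skin, while most receptor genes lie below 0.

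The competent and refractory stages of telogen differed within each domain. The study names them first and early second telogen, with anagen and catagen in between. Stage, cycle number and any difference in age therefore cannot be told apart. In chin skin 8 of 9 genes differed between the telogen stages (36.3% of all genes), and 7 were lower (17.8%) and 1 higher (18.4%) in competent telogen. The largest differences were those of Esr1, Ghr (-1.44 ± 0.12, adjusted p = 1.35e-10) and Srd5a2 (-1.19, adjusted p = 0.000143). Srd5a1 was higher (0.30, adjusted p = 0.0421). In ventral skin 6 differed (42.6%), with Esr1, Vdr, Nr3c1 and Srd5a1 higher (34.5%) and Thra and Srd5a2 lower (8.12%) in competent telogen. The Vdr step there (0.21, adjusted p = 0.0446) turned to -0.20 (adjusted p = 0.0179) after median-ratio scaling, and that of Nr3c1 (0.38) to -0.03 (adjusted p = 0.874). Without the second ventral refractory telogen library neither passed, with Vdr at -0.04 (adjusted p = 0.78) and Nr3c1 at 0.17 (adjusted p = 0.342). The smaller chin differences of Prlr (-0.43), Thrb (-0.38) and Srd5a1 and the ventral ones of Thra (-0.28) and Srd5a1 (0.49) each failed without 1 or more single libraries of these stages, with adjusted p up to 0.22, 0.164, 0.272, 0.0948 and 0.0774. In dorsal skin 3 differed (22.2%; 11.3% higher and 10.8% lower). Esr1 (0.79) and Ghr (1.06) were higher and Thrb (-0.89) lower in the libraries labelled competent telogen.

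Domains were compared at each stage. At competent telogen 8 of 9 genes differed among the domains (54% of all genes), and without the 2 dorsal libraries 4 did (22.6%), namely Esr1, Nr3c1, Ghr and Thrb. Ventral exceeded chin competent telogen for these 4 genes (23% of all genes differed between them), by 1.86 ± 0.16 for Esr1 (adjusted p = 1.45e-09) and 1.36 for Ghr (adjusted p = 5.6e-09). At early anagen 8 differed (51.6%), or 7 (32.8%) without the dorsal libraries of that stage, when Thra did not pass (adjusted p = 0.541). At mid-anagen 5 differed (38.1%). The count was 6 at each later stage, where the share of all genes was 20.8% (late anagen), 42.9% (catagen) and 42.2% (refractory telogen). The late anagen count was 5 (20.3%) without the dorsal early anagen libraries and 3 (12.3%) without the first chin late anagen library, and its Prlr call (adjusted p = 0.0499) was lost in 39 of 54 refits. The mid-anagen count was 3 (15.4%) when only mid-anagen libraries were fitted. At refractory telogen dorsal skin differed from chin for 6 genes (34.8% of all genes), 5 lower (27.2%) and Srd5a2 higher (7.61%), with a log2 difference of -1.96 ± 0.12 for Ghr (adjusted p = 1.28e-12), -1.71 ± 0.16 for Esr1 (adjusted p = 1.13e-09), -1.41 for Nr3c1 (adjusted p = 8.07e-11) and -1.11 for Prlr (adjusted p = 1.2e-06). Esr1, Prlr, Nr3c1 and Ghr were also lower in dorsal than in ventral refractory telogen (13.7% of all genes differed, 8.1% lower and 5.57% higher), from -1.93 for Ghr (adjusted p = 1.8e-11) to -0.42 for Nr3c1 (adjusted p = 0.0183). The Nr3c1 call was lost without the first ventral (-0.21, adjusted p = 0.272) or the second dorsal refractory telogen library (-0.30, adjusted p = 0.262). The fifth lower gene against chin, Thra (-0.41), did not pass after median-ratio scaling (-0.16, adjusted p = 0.216), nor Srd5a2 (0.89) with a pseudocount of 0.1 (adjusted p = 0.158). Dorsal refractory telogen skin thus held the lowest Ghr of the refractory groups with no overlap (10.73 to 11.53 FPKM against 42.33 to 49.74).

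Averaged over the 6 stages, ventral skin exceeded chin for 5 genes (Esr1, Prlr, Ghr, Srd5a1 and Srd5a2; 9.13% of all genes were higher) and was lower for Vdr (14.5% were lower), 6 genes in all (23.7%). These differences ran from -0.14 for Vdr to 0.34 for Esr1. Those of Prlr (0.20) and Srd5a2 (0.29) were lost without single libraries, for Prlr at an adjusted p of up to 0.0574 and for Srd5a2 of up to 0.0731. Compared to chin, dorsal skin was lower for 3 genes (26.8% of all genes differed, 17.3% lower and 9.52% higher). These were Nr3c1, Ghr and Thra, at -0.19, -0.29 and -0.27 on the log2 scale. Compared to ventral skin it was lower for 7 genes and higher for Vdr (8 in all, where 37.5% of all genes differed, 19.9% lower and 17.6% higher), with Ghr at -0.51 (adjusted p = 5.12e-09). Without the dorsal early anagen libraries the dorsal count against chin was 5 (33.5%), with Esr1 and Prlr in addition. Without the libraries labelled dorsal competent telogen it was 4 (29.2%), namely Esr1, Ghr, Thra and Srd5a2, and Nr3c1 did not pass (-0.08, adjusted p = 0.24). Against ventral skin the count was 6 without either group. Without dorsal early anagen (38.3%) none was higher, since Vdr (0.03, adjusted p = 0.6) and Srd5a2 (-0.11, adjusted p = 0.456) did not pass. Without dorsal competent telogen (36.5%) Prlr (-0.12, adjusted p = 0.167) and Nr3c1 (-0.09, adjusted p = 0.185) did not pass. Over the 6 dorsal stages, 6 genes differed without dorsal early anagen (58%), all but Prlr, Vdr and Srd5a1.

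Levels of other cell types moved with several of the genes. Over the 18 group means, Ghr correlated with the mean of 10 adipocyte markers at r = 0.91, with that of 10 dermal fibroblast markers at 0.85 and with that of 10 macrophage markers at 0.83, and Esr1 at 0.83 with each of the 3 lists. The adipocyte list was at 6.37 to 6.52 in chin and 6.33 to 6.88 in ventral refractory telogen, against 3.79 in dorsal refractory telogen and 3.85 to 3.88 in ventral late anagen. Its summed FPKM was 2110 to 2330, 3680 to 3810, 1170 to 1200 and 1410 to 1540 in these groups. Prlr correlated at -0.85 with the hair matrix and shaft list and at 0.82 with the keratinocyte list, and Nr3c1 at -0.75 with the hair matrix list and 0.76 with the sebaceous gland list. Srd5a2 correlated with the hair matrix list at 0.42 and, more strongly, with the cartilage list at -0.75 (rho -0.84), although 5 of the 8 cartilage genes in the table were under 0.5 FPKM in all 18 groups. Skeletal muscle markers were at 8.56 to 9.34 in chin refractory telogen and at 3.52 to 3.59 in ventral competent telogen. These correlations describe 18 points that share libraries, and the part of cell content in the differences of the receptor genes was not tested.

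Among the 9 genes, the closest pairs over the 18 group means were Esr1 and Ghr (r = 0.91, Spearman rho 0.9) and Prlr and Nr3c1 (r = 0.85, rho 0.79). Srd5a1 and Srd5a2 were at -0.26. Over 18131 genes that reached 1 FPKM in a group, the pattern most like Ghr was that of G0s2 (r = 0.970), which encodes an inhibitor of fat breakdown, followed by Slc7a10 (0.963), an amino acid transporter. Esr1 was nearest to Btk (0.930), a kinase of B cells and myeloid cells, and Arsi (0.929). Prlr was nearest to Rasa3 (0.945) and Cytip (0.932), and Nr3c1 to Lifr (0.924), the leukemia inhibitory factor receptor, and Cisd1 (0.920). Thra was nearest to Ttc7 (0.888) and Marveld1 (0.886), and Thrb to Cxcr6 (0.863), a chemokine receptor, and Acaa1b (0.852). Vdr was nearest to Fam229b (0.848) and Pnliprp1 (0.844), Srd5a1 to Cmpk1 (0.846) and Hacd3 (0.845), and Srd5a2 to 4632432E15Rik (0.895) and Nes (0.885).

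Genes that act in the signalling of the growth hormone and prolactin receptors were mostly lower in anagen in chin and ventral skin. Of 9 such genes, all 9 were lower in anagen in chin (34.1% of all genes were lower) and 8 in ventral skin (22.9%), with medians of -0.86 and -0.76, but 2 in dorsal skin (10.4%; median -0.12). In chin skin Socs3, a feedback inhibitor of cytokine receptors, was at -0.95 (adjusted p = 2.18e-07), Stat5a, the transcription factor, at -0.91 (adjusted p = 6.75e-08) and Cish, a Stat5 target, at -0.87 (adjusted p = 1.58e-08). In ventral skin Igf1, a growth factor induced by growth hormone, fell by 1.86 (adjusted p = 5.29e-13), from 18.85 to 22.33 FPKM in competent telogen to 2.8 to 4.45 in late anagen. Igf1 was at 3.12 to 4.15 FPKM in dorsal refractory telogen, where Ghr was also low, against 25.86 to 29.8 in chin refractory telogen. In dorsal skin Igfals (-0.38, adjusted p = 0.0102) and Igf1 (-0.37, adjusted p = 0.0164) were the genes that passed. Whether they pass without the libraries labelled dorsal competent telogen was not tested. Counts of this list and of the other gene lists were not repeated after median-ratio scaling. That scaling moved the median difference of all genes in chin skin from -0.17 to -0.01. The signalling list was drawn up with earlier results of these libraries known, so that its counts are a description. Several lists of cell type markers moved the same way in these comparisons. In chin anagen 10 of 10 keratinocyte (median -0.75), 10 of 10 dermal fibroblast (-0.75) and 9 of 10 sebaceous gland markers (-0.90) were lower. In ventral anagen 10 of 10 dermal fibroblast (-0.85), 9 of 10 adipocyte (-1.85) and 8 of 10 keratinocyte markers (-0.40) were lower. In dorsal anagen 6 of 10 dermal fibroblast (-0.30) and 3 of 10 adipocyte markers (-0.25) were lower, and 4 of 10 sebaceous gland markers (0.31) were higher. Macrophage markers were lower for 5 of 10 in chin (-0.46), 10 of 10 in ventral (-1.06) and 9 of 10 in dorsal anagen (-0.77). Hair matrix and shaft markers went the other way, with 9 of 9 higher in chin (median 2.00) and in ventral anagen (1.16). In ventral anagen 8 of 10 skeletal muscle markers were also higher (0.89), but 10 of 10 were lower in chin (-1.01) and in dorsal anagen (-2.49). Of 10 adipocyte markers, 3 were lower and 2 higher in chin anagen. The part of cell content in the changes of this list and of the glucocorticoid response genes was not tested.

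Genes known to respond to glucocorticoids were also mostly lower in anagen in chin and ventral skin. In anagen 9 of 10 were lower in chin skin (median -0.67; 34.1% of all genes were lower). In ventral skin 6 were lower (22.9%) and 1 higher (8.82%), with a median of -0.46, and in dorsal skin 1 was lower (10.4%) and 2 higher (21%), with a median of -0.01. Dusp1, a phosphatase that turns off MAP kinases, fell by 1.83 in chin (adjusted p = 2.17e-16) and 1.35 in ventral skin (adjusted p = 1.15e-13). It was at 173.77 to 185.55 FPKM in chin refractory telogen and 22.05 to 25.05 in chin late anagen. Tsc22d3, which encodes the glucocorticoid-induced leucine zipper, fell by 1.60 in chin (adjusted p = 1.26e-11) and 0.85 in ventral skin (adjusted p = 1.12e-06). In dorsal skin the metallothionein gene Mt2 (0.74, adjusted p = 3.11e-07) and Ddit4 (0.69, adjusted p = 0.00107) rose and Zbtb16 (-0.42, adjusted p = 0.0055) fell.

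Partners and cofactors of the nuclear receptors differed from gene to gene. Of 8 other nuclear receptors tested (10 listed), 4 were lower in anagen in chin skin (34.1% of all genes), 3 lower (22.9%) and 1 higher (8.82%) in ventral skin and 1 each way in dorsal skin (10.4% lower and 21% higher). The retinoid X receptor genes Rxrg (-1.04, adjusted p = 3.78e-08) and Rxra (-0.69, adjusted p = 1.17e-07) led in chin skin. Rarb, a retinoic acid receptor gene, was higher in anagen in ventral (0.47, adjusted p = 0.00011) and dorsal skin (0.42, adjusted p = 4e-04). Of 8 cofactor genes, 4 were lower in anagen in chin, 1 in ventral and 3 in dorsal skin, where 2 were higher, beside the same shares of all genes. The corepressor gene Hr had the largest of these changes, and it fell in dorsal skin by 1.54 (adjusted p = 3.19e-12) and in ventral skin by 0.32 (adjusted p = 0.019). Hr was at 38.65 and 38.66 FPKM in the libraries labelled dorsal competent telogen, at 59.49 and 60.99 in dorsal refractory telogen and at 13.89 to 17.88 in dorsal mid- and late anagen. These 2 dorsal telogen groups were also the highest dorsal groups for Srd5a2.

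The ear tissues were compared within their own table. The complex held cartilage markers at a mean log2 of 5.61 to 5.68 (0.46 to 0.48 in ear skin), muscle markers at 9.27 to 9.47 and keratinocyte markers at 1.48 to 1.56, with Dsg3 at 0. Ear skin held keratinocyte markers at 8.29 to 8.36 but hair matrix markers at 2.61 to 2.66, against 8.7 in the dorsal libraries, so that hair growth state and body site cannot be told apart in this comparison. Dermal fibroblast markers were at 7.75 to 7.77 in ear skin and 5.78 in dorsal skin. Over all genes tested, ear skin was higher than dorsal skin by a median of 0.33 on the log2 scale, and by 0.02 after median-ratio scaling.

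Ear skin held more Nr3c1 and Prlr and less Vdr than dorsal competent telogen skin. Nr3c1 was at 53.94 and 54.55 FPKM in ear skin against 14.43 and 13.28 in dorsal skin, a log2 difference of 1.90 ± 0.08 (adjusted p = 1.06e-05). Prlr was at 10.00 and 10.16 against 3.92 and 2.52 (1.41 ± 0.16, adjusted p = 0.000557). Vdr was at 11.15 and 11.39 against 35.40 and 34.94 (-1.56 ± 0.12, adjusted p = 9.53e-05), below every library of the 3 skin domains. Srd5a2 was listed at 0 in both ear skin libraries and at 3.61 and 4.39 in dorsal skin (adjusted p = 1.52e-05). Dorsal competent telogen was itself among the lowest skin groups for Nr3c1 and Prlr and the highest for Srd5a2. Ear Nr3c1 overlapped chin refractory telogen (38.42 to 54.15 FPKM). Ear Prlr lay inside chin refractory telogen (9.44 to 11.12) and dorsal early anagen (9.86 to 11.1). Srd5a2 was also at 0 in chin competent telogen and chin early anagen. In all, 6 of 9 genes differed (59.3% of all genes), 4 higher in ear skin (44.7%) and 2 lower (14.6%). The other higher genes were Ghr (0.55, adjusted p = 0.00118) and Thra (0.68, adjusted p = 0.00308), which did not pass after median-ratio scaling (adjusted p = 0.455 and 0.146). Esr1 was at 2.79 and 2.82 in ear skin and 2.83 and 2.76 in dorsal skin. With dorsal refractory telogen libraries in place of the competent ones, 8 genes differed (57.5% of all genes), 5 higher and 3 lower in ear skin, Nr3c1 by 1.60 (adjusted p = 6.11e-05).

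The cartilage/muscle complex held far less Vdr and Srd5a1 than ear skin and more Thra. Vdr was at 0.45, 0.65 and 0.32 FPKM in the complex (0.473 ± 0.166, n = 3), a log2 difference of -3.06 ± 0.11 from ear skin (adjusted p = 1.7e-06). Srd5a1 was at 1.23, 1.47 and 0.85 in the complex and 21.55 and 22.41 in ear skin (-3.41 ± 0.13, adjusted p = 2.46e-06). Neither gene overlapped between the tissues. Nsun2, which overlaps Srd5a1 on the other strand, was at 26.55 to 32.81 FPKM in the complex and 46.84 to 50.62 in ear skin. Thra was at 90.62, 107.89 and 92.10 in the complex and 31.31 and 34.87 in ear skin (1.52 ± 0.11, adjusted p = 4.02e-05). The overlapping Nr1d1 was at 117.41 to 139.51 in the complex and 70.04 to 75.63 in ear skin. Thrb was also higher, at 6.08, 5.56 and 6.45 against 3.11 and 3.36 (0.73, adjusted p = 0.000528), and Ghr was at 49.69, 53.04 and 53.83 against 35.45 and 36.55 (0.52, adjusted p = 0.00071). Srd5a2 was listed at 0 in all 3 libraries of the complex, where 3 fragments would give between 0.07 and 0.32 FPKM over the libraries of the table. In all, 7 of 9 genes differed between the complex and ear skin (66.5% of all genes), 4 higher (28%) and 3 lower (38.5%), and all 9 between the complex and dorsal skin (71.1%), 6 higher (42.8%) and 3 lower (28.3%). Nr3c1 was at 44.04, 49.47 and 43.89 in the complex, and its difference from ear skin (-0.24, adjusted p = 0.0282) did not pass after median-ratio scaling (adjusted p = 0.0875) or without the first (adjusted p = 0.0782) or the third (adjusted p = 0.0724) of these libraries or either ear skin library (0.112 and 0.0948). Esr1 was at 3.61, 3.74 and 3.67 in the complex (0.30 above ear skin, adjusted p = 0.011), and Prlr at 7.87, 8.31 and 7.29 (-0.33, adjusted p = 0.0927).

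**Figure D5:**
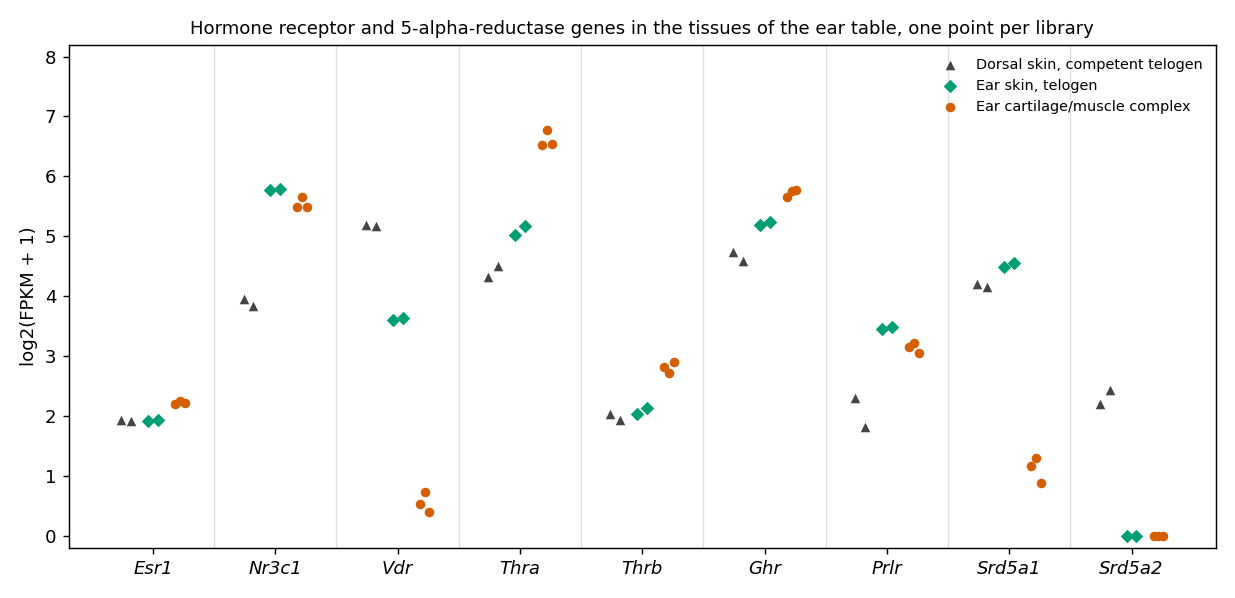
log2(FPKM + 1) (y axis) of the 9 genes (x axis) in telogen ear skin, the ear cartilage/muscle complex and dorsal competent telogen skin, with 1 point per library. Vdr and Srd5a1 are lowest in the complex, at 0.32 to 0.65 and 0.85 to 1.47 FPKM, Thra is highest there, and Srd5a2 is at 0 in both ear tissues.

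The pathway lists were also counted in the ear table, where 44.7% of all genes were higher and 14.6% lower in ear skin than in dorsal skin. Of 9 growth hormone and prolactin signalling genes, 7 were higher and 1 lower in ear skin (median 0.94), with Socs2 at 1.80 (adjusted p = 0.000517) and Igf1 at 1.37 (adjusted p = 1.48e-05). Socs3 was at 178.67 to 205.91 FPKM in the complex and 6.63 to 7.59 in ear skin (4.55, adjusted p = 1.56e-07), while Cish was lower in the complex (-1.53, adjusted p = 9.3e-05). Of 10 glucocorticoid response genes, 6 were higher and 3 lower in ear skin than in dorsal skin (median 1.23). Tsc22d3 was at 173.78 to 175.18 FPKM against 25.64 to 28.48 (2.65, adjusted p = 8.77e-07) and Fkbp5, a chaperone of steroid receptors, was at 1.71 (adjusted p = 5.59e-05). All 10 differed between the complex and ear skin, with 8 higher in the complex (28% of all genes) and 2 lower (38.5%), and Dusp1 reached 665.64 to 779.32 FPKM (3.47, adjusted p = 3.01e-07). Among the cofactors, 5 of 8 differed between ear and dorsal skin, 3 higher and 2 lower, with Hr at -1.02 (adjusted p = 0.00714). Among the other nuclear receptors 5 of 8 were higher in ear skin and none lower, and in the complex Nr3c2, the mineralocorticoid receptor gene, exceeded ear skin by 1.80 (adjusted p = 0.00017).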

How the data were processed

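Whole skin of C57BL/6 mice was microdissected from chin, ventral and dorsal sites, and RNA was sequenced in paired ends from SMART-seq2 libraries tagged with Nextera, which do not mark strand. The authors aligned reads to mm10 with GENCODE vM8 and quantified them with RSEM 1.2.25. The deposited values are FPKM (fragments per kilobase of transcript and depth) with 2 decimals, described as corrected for batch effects with no batch named, so that spread between libraries may be understated and batch and group cannot be told apart.

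Groups followed the labels. The 43 skin libraries were fitted together (limma 3.58.1 in R 4.3.3, with a variance trend) on log2(FPKM + 1) with 1 mean for each of 18 groups, and the 7 libraries of the ear table apart. This scale understates the changes of low genes. Genes with at least 0.5 FPKM in 2 or more libraries were tested (21257 for skin and 19299 for the ear table), and p-values were adjusted by Benjamini-Hochberg over them, with a threshold of 0.05. Stages, domains and their interaction were tested by moderated F-tests and pairs of groups by moderated contrasts, all two-sided. The scripts were tested on simulated data.

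The 9 genes, the gene lists and the tests were chosen with earlier results of these data known. Named genes are all 9, up to 4 list genes with the largest differences among those that passed, and the 2 genes nearest to each of the 9 by Pearson r. Figures used matplotlib 3.10.9. Alternatives were other scalings, filters and pseudocounts, a replicate block and leaving out libraries. They were run for the 9 genes, and the counts of the gene lists in both tables were not repeated under them.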

Additional observations from a re-analysis of the deposited data

Results flagged for a closer look

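For 8 of the 9 genes, stage changes were unequal across chin, ventral and dorsal skin by the interaction of domain and stage (limma F-test, adjusted over all genes tested, of which 73.3% passed). The adjusted p was 6.27e-14 for Ghr, 2.91e-12 for Nr3c1, 9.42e-12 for Esr1, 4.6e-11 for Srd5a2, 1.31e-07 for Prlr, 0.000107 for Vdr, 0.000156 for Thra and 0.000973 for Thrb. All 8 also passed without the libraries labelled dorsal competent telogen and without those of dorsal early anagen. Srd5a2 and Ghr show the size of these differences. Between anagen and telogen Srd5a2 rose by 0.68 in chin and 0.71 in ventral skin and fell by 1.84 in dorsal skin. The same contrast moved hair matrix and shaft markers by a median of 2.00 in chin, 1.16 in ventral and only 0.17 in dorsal skin. The part of hair growth state in the dorsal Srd5a2 difference was not tested. From catagen to refractory telogen Ghr rose by 1.36 in chin and 1.49 in ventral skin and fell by 0.90 in dorsal skin. With 2 or 3 libraries in a group, single libraries were not tested as outliers.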

How the results depend on the processing

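Counts of genes that differed were within 1.5 times the reported count in every refit but these. Without both libraries labelled dorsal competent telogen (chosen after seeing the data), 4 genes in place of 8 differed among domains at competent telogen and 3 in place of 5 between dorsal anagen and telogen. Without both dorsal early anagen libraries (also chosen after seeing the data), 5 in place of 3 differed between dorsal and chin skin. At mid-anagen 3 in place of 5 differed with its own libraries alone. At late anagen the count ran from 3 to 6 with 1 library left out, and was 3 without the first chin late anagen library. The sign changed for few differences. After median-ratio scaling, Vdr between anagen and telogen in chin skin was 0.26, Esr1 between ear and dorsal skin -0.36 and between complex and dorsal skin -0.0067, Vdr between the ventral telogen stages -0.20, Nr3c1 there -0.0303, Vdr from dorsal competent telogen to early anagen -0.13, and Vdr between dorsal and ventral competent telogen 0.15. After quantile normalization the values were 0.16 for Vdr in chin skin, -0.40 for Esr1 and -0.31 for Thrb between ear and dorsal skin, 0.0672 for Nr3c1 between complex and ear skin, -0.10 for Vdr between the ventral telogen stages and 0.0502 for Vdr between dorsal and ventral competent telogen. With dorsal refractory telogen as the dorsal skin of the ear table, Thrb was at -0.79 for ear skin against it and -0.061 for the complex against it. Ghr between dorsal anagen and telogen was 0.25 without the libraries labelled dorsal competent telogen, and Vdr between the ventral telogen stages ran from -0.0361 to 0.464 with 1 library left out, the lowest without the second ventral refractory telogen library and the highest without the first. The cause was not tested.

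Of 317 single differences, 274 kept direction and side of the threshold under median-ratio scaling, 278 under quantile normalization, 291 under TPM rescaling, 306 without the filter, 311 with a pseudocount of 0.1 and 314 without the variance trend. With a minimum of 5 FPKM, 275 of 275 did, but this filter removed Srd5a2 throughout and Esr1 from the ear table, so that their differences were not checked by it. To see whether replicate numbers pair libraries, the difference between replicates 1 and 2 of a group was correlated over genes between domains at a stage. Of these correlations, 0 of 18 were over 0.1 (-0.074 to 0.079). The values are described as already corrected for batch effects, so this cannot show that the libraries were unpaired. The replicate block left 286 of 290 differences as they were. It ended the calls of Srd5a1 between the chin telogen stages (0.27, adjusted p = 0.0696), Srd5a2 from ventral late anagen to catagen (-0.76, adjusted p = 0.0588), Ghr between dorsal and chin catagen (0.31, adjusted p = 0.0517) and Prlr among domains at late anagen (adjusted p = 0.0574), and it moved no count by over 1.5 times. For the ear table, no paired analysis was possible because its ear skin columns carry other numbers than the labels. Depth limits Srd5a2, for which 11 of 43 skin libraries were at or under 3 fragments.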

Other observations

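Of 13 genes of local hormone synthesis, breakdown and transport tested in skin (18 were listed), 2 were higher and 9 lower in anagen in chin skin, where 8.55% of all genes were higher and 34.1% lower. In ventral skin 1 was higher (8.82%) and 8 lower (22.9%), and in dorsal skin 3 were higher (21%) and 2 lower (10.4%). Hsd17b2, whose product inactivates estradiol and testosterone, was higher in anagen in all 3 domains, by 0.74 in chin (adjusted p = 1.75e-05), 1.31 in ventral (adjusted p = 6.84e-10) and 1.84 in dorsal skin (adjusted p = 6.56e-13). It was at 14.84 to 15.99 FPKM in dorsal mid-anagen and 1.22 to 1.4 in dorsal refractory telogen. Hsd11b1, whose product regenerates active glucocorticoid, fell by 1.89 in ventral anagen (adjusted p = 6.48e-13), from 14.17 to 17.61 FPKM in refractory telogen to 2.25 to 2.35 in late anagen. Dio3, which inactivates thyroid hormone, was higher in anagen in chin skin (0.80, adjusted p = 3.32e-05) and lower in dorsal skin (-1.65, adjusted p = 1.02e-10). Its level was 8.54 to 9.49 FPKM in dorsal refractory telogen, where Thrb was also highest, and 0.09 to 0.35 in dorsal early anagen.

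Hsd3b6, a steroid dehydrogenase of early steroid synthesis, exceeded chin by 1.28 in ventral skin over the stages (adjusted p = 3.55e-13) and was -1.01 in dorsal against ventral skin (adjusted p = 3.03e-11). It was at 42.22 to 42.87 FPKM in ear skin and 1.18 in both libraries of dorsal skin (4.32, adjusted p = 2.66e-07), and listed at 0 in the cartilage/muscle complex. Cyp11a1, the enzyme that begins steroid synthesis from cholesterol, was also higher in ear skin (2.66, adjusted p = 1.06e-05). Sebaceous gland markers moved with both, at a mean log2 of 6.95 to 6.96 in ear skin, 4.24 to 4.25 in dorsal skin and 2.57 to 2.62 in the complex, and their part in these differences was not tested. Of 10 genes of the list tested in the ear table, 7 were higher (44.7% of all genes) and 1 lower (14.6%) in ear skin than in dorsal skin.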
